A study of Mus musculus with 12 samples.

Results

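Activin A was compared with follistatin given alone in bone marrow-derived macrophages (BMDMs), using 6 of the 12 RNA sequencing libraries of the series, namely 3 from cells treated with activin A (Act) and 3 from cells treated with follistatin (FST). Libraries with the same replicate number were paired, and 14318 of the 18376 genes in the deposited table entered the test, those whose mean over the 12 libraries reached 5. All cells were WT and were grown from bone marrow progenitors of adult C57BL6/J mice in RPMI-1640 with 50 ng/ml mouse M-CSF, the cytokine that drives progenitors to become macrophages. Act cultures also received 50 ng/ml recombinant activin A, FST cultures 250 ng/ml FST288 (a short form of follistatin), Act + FST cultures both agents, and CTRL cultures neither, each for 6 days. CTRL and Act + FST appear here only where they place FST. The cultures had no other cell type added, each agent was used at a single dose and time, and the sources do not state whether the replicates came from separate mice or separate cultures, so the p-values measure the spread between these libraries, which may be technical. In RNA from a whole culture, fewer cells of a type and less RNA per cell cannot be told apart.

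Activin A is a dimer of inhibin βA subunits, encoded by *Inhba*, and belongs to the TGF-β family. It binds type II receptors, which recruit and activate type I receptors, and these phosphorylate SMAD2 and SMAD3, which enter the nucleus with SMAD4 and act on transcription together with other factors. Follistatin wraps around the activin dimer and covers its receptor binding surfaces, and it also binds some relatives of activin, so that FST cultures lacked added activin and had any activin of their own within reach of a binder.

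The values are whole numbers labelled as normalized counts, taken here as reads per gene divided by a library's scaling factor and rounded. Totals per library ran from 5643708 to 5955400, and between 17361 and 17672 genes were above 0. CTRL replicate 2 held more of several of the transcripts that were highest in Act than the other CTRL libraries did, and Act + FST replicate 3 held more mitosis transcripts than any other library (530 of *Ccna2*, against at most 272 elsewhere). Neither library belongs to the groups compared. A fit of the 6 Act and FST libraries alone gave 469 differentially expressed genes higher and 551 lower, against 463 and 553 in the fit of all 12 libraries. Fold changes are Act over FST on the log2(normalized count + 1) scale from limma with the replicate number as a block, with standard errors (SE) and Benjamini-Hochberg adjusted p-values over all 14318 genes. A gene is called higher or lower at an adjusted p of at most 0.05, and a differentially expressed gene (DEG) has in addition a fold change of at least 2.

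Act and FST differed in 1016 DEGs, which is 7.1% of the genes tested. Of these, 463 (3.23%) were higher and 553 (3.86%) lower in Act. Without the fold threshold, 2478 genes (17.3%) passed the test as higher and 2438 (17.0%) as lower, so that 2015 and 1885 genes passed the test with a change under 2-fold. The DEGs reached at least 4-fold in 143 genes that rose and 147 that fell, and at least 8-fold in 41 and 28. The direction was the same in all 3 pairs for 459 of the 463 higher and 548 of the 553 lower DEGs. Libraries did not overlap between Act and FST for 451 and 534 DEGs, against 39.2% of all genes tested. Both results follow largely from the way DEGs were called, on these same pairs of libraries, and are no separate support. The median DEG log2 difference was 1.43, 1.63 and 1.72 in pairs 1, 2 and 3 for genes that rose, and −1.60, −1.29 and −1.74 for genes that fell. DEGs lay mostly among genes of low level, with a median mean of 34.0 normalized counts for the higher and 36.0 for the lower DEGs, against 249 for all genes tested. Among genes with a mean of at least 50, DEGs made up 10.6% of those with under 0.05 normalized counts per exonic base and 0.0% of those above 0.4, while the adjusted p alone was passed by 41.4% and 36.0%. Densely covered genes therefore passed the test about as often and with smaller fold changes. The highest mean of any gene listed was 0.883 normalized counts per exonic base. What part the way the values were made had in these results was not tested.

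**Figure D1:**
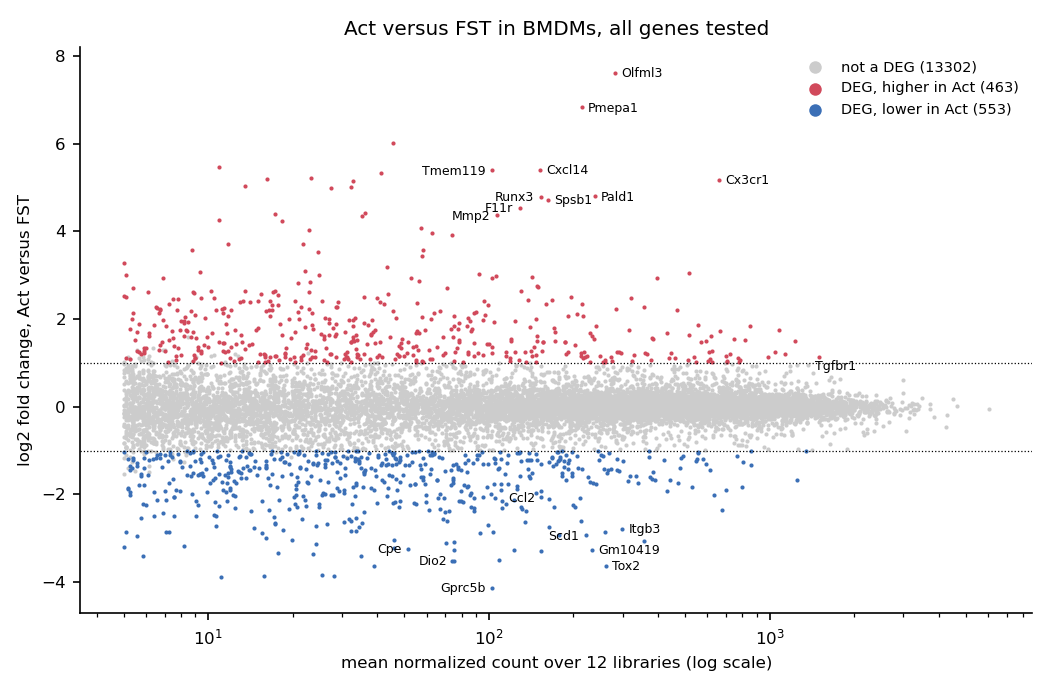
Log2 fold change of Act versus FST (vertical axis) against the mean normalized count over 12 libraries (horizontal log axis), 1 point per gene, with dotted lines at 2-fold. The 463 DEGs higher in Act reach a log2 fold change of 7.62 (*Olfml3*), the 553 lower DEGs reach −4.13 (*Gprc5b*), and DEGs become fewer towards the highest means.

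*Olfml3*, which encodes a secreted olfactomedin-like glycoprotein, rose most among the DEGs that had a mean of 50 or more and no overlap of their libraries. It had 12, 2 and 3 normalized counts in FST replicates 1, 2 and 3 and 1055, 1008 and 1104 in Act. All 3 Act libraries were far above all 3 FST libraries, with a log2 fold change of 7.62 (SE 0.68, adjusted p = 1.1e-06). Because the FST values were close to 0, the size depends on the pseudocount and on single libraries, and it lay between 6.75 and 8.25 over all fits. *Pmepa1*, which encodes a membrane protein that binds receptor-activated SMADs and limits TGF-β signaling, had 5, 9 and 5 normalized counts in FST and 756, 792 and 871 in Act (log2 fold change 6.82, SE 0.39, adjusted p = 1.6e-08). *Cxcl14*, a chemokine, had 26, 4 and 12 in FST and 507, 502 and 517 in Act (5.40). *Tmem119*, a membrane protein used as a marker of microglia, had 9, 5 and 11 in FST and 341, 364 and 422 in Act (5.39). The spread lay in FST rather than in Act for *Cxcl14*, whose 3 Act libraries were within 15 counts of each other.

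*Cx3cr1*, the receptor for fractalkine on monocytes and microglia, had the highest level per exonic length in Act among these 10 genes, a mean of 479 normalized counts per kb. It had 119, 58 and 29 normalized counts in FST replicates 1, 2 and 3 and 2207, 2123 and 2142 in Act, a log2 fold change of 5.18 (SE 0.41, adjusted p = 3.1e-07). The Act libraries were nearly level while the FST libraries differed by over 4-fold, so that the log2 difference was 4.20, 5.17 and 6.16 in pairs 1, 2 and 3. What part dense coverage in Act had in this was not tested. *Runx3*, a Runt transcription factor, had 19, 19 and 15 in FST and 494, 534 and 502 in Act (4.78). *Spsb1*, which encodes an adaptor that marks proteins for degradation, had 20, 22 and 19 in FST and 532, 522 and 635 in Act (4.72). The libraries of each group lay close together for both genes. *Pald1*, *F11r* (junctional adhesion molecule A) and *Mmp2* complete the list, with log2 fold changes of 4.79, 4.54 and 4.36.

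Among the falls, *Gprc5b*, an orphan receptor of the G protein-coupled family, was the largest. It had 157, 175 and 152 normalized counts in FST replicates 1, 2 and 3 and 6, 18 and 5 in Act (log2 fold change −4.13, SE 0.27, adjusted p = 6.1e-08), and 13.1% of its exonic bases overlap another gene on the opposite strand. *Tox2*, an HMG-box protein, had 358, 356 and 376 in FST and 28, 58 and 14 in Act (−3.63). *Dio2*, the deiodinase that makes active thyroid hormone, had 121, 119 and 147 in FST and 7, 17 and 9 in Act (−3.52). The Act libraries were below the FST libraries for all 3 genes, and replicate 2 was the highest Act library each time. *Ctnnd2* (−3.50), *Nrcam* (−3.29), *Fbln5* (−3.26) and *Cpe* (−3.24) encode proteins of cell contacts, the matrix and prohormone processing, and *Tslp* (−3.27) encodes an epithelial-type cytokine. *Gm42517* (−3.51) and *Gm10419* (−3.26) are gene models that overlap each other on opposite strands. Adjusted p was at most 3.9e-06 for these 10 falls.

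**Figure D2:**
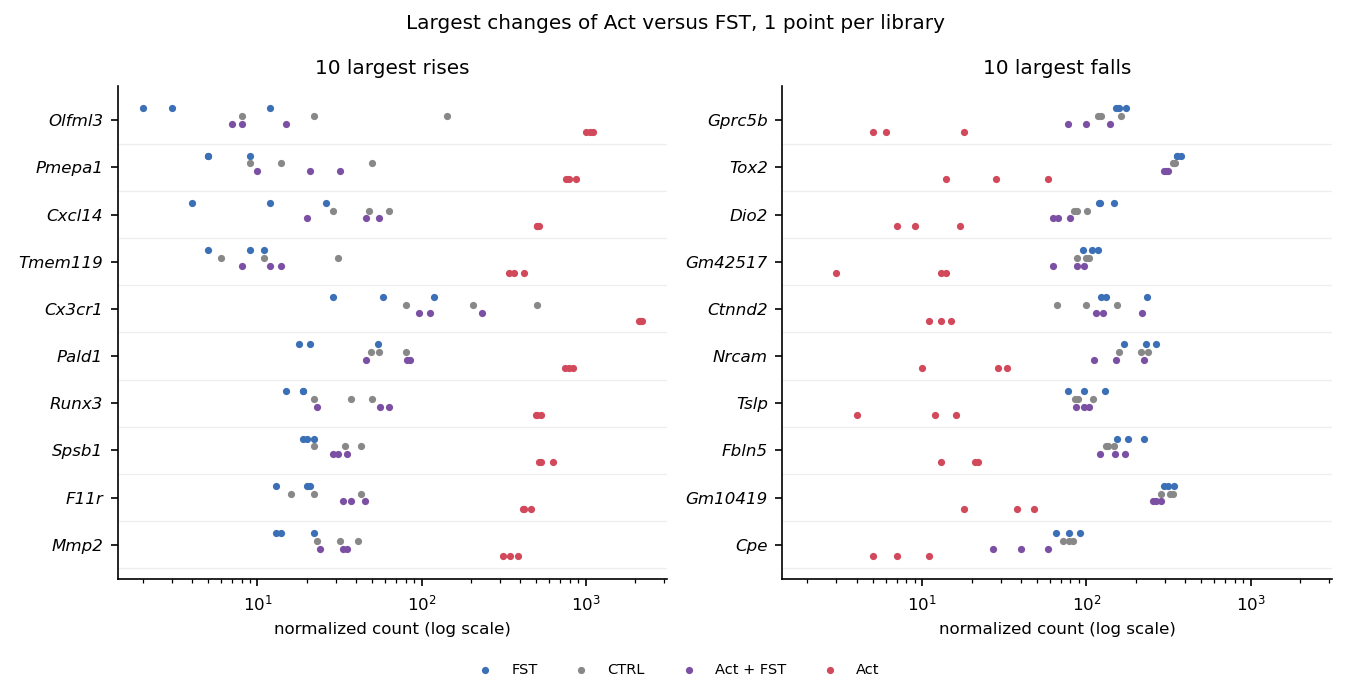
Normalized counts (horizontal log axis) of the 10 genes with the largest rises and the 10 with the largest falls of Act versus FST, with 1 point per library and a colour per group. Act libraries (red) stand apart from all others, as for *Cx3cr1* at 2123 to 2207 against 29 to 119 in FST, and FST libraries (blue) are the lowest in several of the rises.

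The upstream sequence of the genes at both ends of this ranking is shown so that it can be set beside their values. Each run holds the 250 bases before the transcription start, read on the gene's strand, from RefSeq on GRCm38.p6. *Pmepa1* and *Tmem119* have no entry. Searched on both strands were AGCCAGAC (the CAGA box), GTCTAGAC (a palindromic SMAD site), TGANTCA (the AP-1 site), GAGGAAGT (a PU.1 site), CCAAT and TTTGAA (a cell cycle homology region), and matches are in capitals.
Olfml3 (chr3:103738002-103738251, minus strand): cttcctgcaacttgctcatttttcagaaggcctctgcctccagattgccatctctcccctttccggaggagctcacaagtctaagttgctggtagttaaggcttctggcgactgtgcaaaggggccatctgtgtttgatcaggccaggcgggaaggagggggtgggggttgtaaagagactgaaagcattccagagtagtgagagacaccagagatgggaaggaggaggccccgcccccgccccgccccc
Cxcl14 (chr13:56296552-56296801, minus strand): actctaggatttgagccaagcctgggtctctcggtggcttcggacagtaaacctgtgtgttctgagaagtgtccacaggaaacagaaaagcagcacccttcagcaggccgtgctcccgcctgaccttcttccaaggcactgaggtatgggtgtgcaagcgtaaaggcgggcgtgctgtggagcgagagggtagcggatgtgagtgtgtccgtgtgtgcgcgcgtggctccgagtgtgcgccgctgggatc
Cx3cr1 (chr9:120068297-120068546, minus strand): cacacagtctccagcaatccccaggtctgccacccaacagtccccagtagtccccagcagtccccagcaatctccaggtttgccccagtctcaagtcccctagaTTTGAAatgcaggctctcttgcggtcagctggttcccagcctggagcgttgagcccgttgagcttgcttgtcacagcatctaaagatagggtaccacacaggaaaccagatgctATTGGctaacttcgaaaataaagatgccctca
Gprc5b (chr7:118995212-118995461, minus strand): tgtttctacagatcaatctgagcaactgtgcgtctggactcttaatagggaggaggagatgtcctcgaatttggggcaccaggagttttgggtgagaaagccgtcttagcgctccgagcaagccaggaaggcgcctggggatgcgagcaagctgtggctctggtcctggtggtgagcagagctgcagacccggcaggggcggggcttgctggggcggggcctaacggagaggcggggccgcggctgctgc
Tox2 (chr2:163202877-163203126, plus strand): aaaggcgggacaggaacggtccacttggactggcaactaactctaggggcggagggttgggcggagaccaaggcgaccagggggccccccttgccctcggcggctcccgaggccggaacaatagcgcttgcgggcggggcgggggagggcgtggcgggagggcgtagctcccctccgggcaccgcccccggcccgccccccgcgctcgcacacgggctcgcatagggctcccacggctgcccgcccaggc
Dio2 (chr12:90739039-90739288, minus strand): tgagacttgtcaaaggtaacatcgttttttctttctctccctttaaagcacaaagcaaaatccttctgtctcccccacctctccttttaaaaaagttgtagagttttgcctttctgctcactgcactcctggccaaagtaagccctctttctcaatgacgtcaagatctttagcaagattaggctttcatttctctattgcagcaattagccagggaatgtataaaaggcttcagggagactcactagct
Only *Cx3cr1* of these 6 windows held any of the motifs, TTTGAA on the gene's strand and CCAAT on the other. Among the promoter windows of 10221 genes tested, the CAGA box was found in 1.03%, the palindromic SMAD site in 0.186%, the AP-1 site in 4.27%, the PU.1 site in 2.9%, CCAAT in 36.9% and TTTGAA in 10.9%. The listed start of *Cx3cr1* lies 1583 bases and that of *Dio2* 600 bases from the gene start of the annotation, so that a window may not be that of the start used in macrophages. Promoters covered 10221 of the 14318 genes, and shares among DEGs are not given here. A match is a description of letters, and the absence of a match says only that these letters are not in the window.

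In the activin pathway itself, most of the DEGs were genes of intracellular feedback. Of 23 SMAD transducers and feedback targets tested, 15 were higher and 2 lower in Act by the adjusted p (13 and 0 without the replicate block), and 7 were DEGs, all of them higher. The median log2 fold change was 0.31, against 0.00 over all genes, of which 17.3% were higher and 17.0% lower. *Smad6*, which encodes an inhibitory SMAD, had 11, 19 and 15 normalized counts in FST and 63, 78 and 106 in Act (log2 fold change 2.38, adjusted p = 1.4e-04). *Skil*, whose product SnoN represses SMAD target genes, had 571, 479 and 421 in FST and 1451, 1367 and 1426 in Act (1.54, adjusted p = 2.2e-09). The groups did not overlap for either gene. Transcripts of the SMADs that carry the signal differed little between the groups, with log2 fold changes of 0.35 for *Smad3*, which passed the test, and 0.08 for *Smad2* and 0.00 for *Smad4*, which did not.

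Of the 12 receptors of the family tested, 4 were higher, 2 were lower, and 1, *Tgfbr3*, was a DEG. Over all genes tested, 17.3% were higher and 17.0% lower. *Tgfbr1* encodes the type I receptor for TGF-β and had 1165, 1050 and 1093 normalized counts in FST and 2268, 1950 and 2149 in Act. It rose in every pair by a log2 fold change of 0.94 (SE 0.03, adjusted p = 2.8e-10), just under 2-fold. *Acvr1* was also higher (0.48), *Eng*, an accessory receptor, was lower (−0.33), and *Tgfbr3*, the accessory receptor betaglycan, was lower with 46, 37 and 43 in FST and 28, 13 and 14 in Act (−1.23, adjusted p = 3.7e-04). The activin receptors *Acvr1b*, *Acvr2a* and *Acvr2b* had log2 fold changes of 0.08, 0.13 and 0.12 that did not pass the test.

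Among ligands and antagonists, 2 of 14 were higher and 5 lower, against 17.3% and 17.0% of all genes tested, and without the replicate block 2 were higher and 3 lower. *Gdf15*, a stress-induced member of the family, had 224, 236 and 258 normalized counts in FST and 84, 107 and 101 in Act (log2 fold change −1.29, adjusted p = 3.8e-08). *Bmp2* had 396, 369 and 279 in FST and 220, 248 and 122 in Act (−0.87, adjusted p = 9.3e-05). *Ltbp3*, which stores latent TGF-β in the matrix, was higher (0.48). *Inhba* itself was scarce in every library, with 15, 10 and 11 normalized counts in FST, 7, 4 and 4 in CTRL and 7, 7 and 3 in Act. It was lower in Act than in FST (−1.01, adjusted p = 0.018), a call lost without the replicate block (adjusted p = 0.057), and FST versus CTRL did not pass the test (1.13, adjusted p = 0.72). *Fst* is not among the genes listed.

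Chemokine and formyl peptide receptors, taken as a single list, were more often higher than lower in Act. Of 16 tested, 10 were higher and 2 lower in Act, against 17.3% and 17.0% of all genes tested. DEGs were 4 higher and 1 lower, and the median log2 fold change of the list was 0.63. *Ccr2*, the receptor that draws monocytes along CCL2, had 678, 443 and 294 normalized counts in FST replicates 1, 2 and 3 and 932, 873 and 940 in Act. All Act libraries were higher than all FST libraries, with 472 ± 194 (SD, n = 3) in FST and 915 ± 36.6 in Act. The log2 difference was 0.46, 0.98 and 1.67 in pairs 1, 2 and 3, with a log2 fold change of 1.04 in the fit (SE 0.17, adjusted p = 2.9e-04, and 0.038 without the block). Leaving out FST replicate 3 took it to 0.93 and leaving out Act replicate 3 to 0.72, both under 2-fold and with adjusted p of 0.0035 and 6.8e-05. *Cxcr4*, the receptor for CXCL12, had 652, 694 and 602 in FST and 1004, 948 and 942 in Act (0.57, SE 0.04, adjusted p = 2.3e-07). Its mean was 0.405 normalized counts per exonic base, above 0.4, where no gene was a DEG. What part dense coverage had in the size of its change was not tested. *Ccrl2* was also higher under 2-fold (0.91). The formyl peptide receptors *Fpr1* and *Fpr2*, which sense bacterial peptides, were DEGs at 1.97 and 1.87. *Ccr3*, an eotaxin receptor, was the DEG that fell, from 274, 135 and 115 in FST to 87, 67 and 57 in Act (−1.21).

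The 21 chemokine ligands split, with 7 higher and 8 lower, and 5 and 4 of them were DEGs. Over all genes tested, 17.3% were higher and 17.0% lower. The CCR2 ligand genes *Ccl2* and *Ccl7* were among those that fell. *Ccl2* had 224, 187 and 163 normalized counts in FST and 53, 55 and 30 in Act, a log2 fold change of −2.07 (SE 0.14, adjusted p = 5.9e-08). *Ccl7* had 126, 100 and 86 in FST and 26, 25 and 20 in Act (−2.08). Another chemokine gene, *Ccl8*, was at a low level and had 24, 29 and 18 in FST and 5, 4 and 3 in Act (−2.30). The groups were apart in every case, and *Ccl12*, a further ligand of CCR2 in mice, was lower too (−0.71). *Cxcl12*, the ligand of CXCR4, was a DEG that fell (−1.28), while *Cxcl14*, *Ccl5* (1.78), *Ccl22* (1.20), *Cxcl2* (1.17) and *Cxcl9* (1.08) rose, and the call of *Cxcl9* was lost without the block (adjusted p = 0.061). *Cxcl2* was under 2-fold without Act replicate 3 (0.86).

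Of 16 inflammatory cytokines and antagonists, 7 were higher and 3 lower, against 17.3% and 17.0% of all genes tested. *Il1b*, the interleukin-1β gene, had 144, 92 and 76 normalized counts in FST and 425, 410 and 445 in Act (log2 fold change 2.08, SE 0.22, adjusted p = 5.6e-06). *Il10*, the gene of an anti-inflammatory cytokine, had 90, 102 and 90 in FST and 28, 36 and 20 in Act (−1.75, SE 0.14, adjusted p = 3.3e-07). These were the DEGs with a mean of at least 50, in opposite directions and without overlap. *Ptgs2*, the prostaglandin synthase COX-2, was a DEG at a low level (1.48). *Il1a* (0.71), *Osm* (0.60) and *Tnf* (0.57) were higher under 2-fold, whereas *Il1rn*, the interleukin-1 receptor antagonist, did not pass the test (0.09).

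**Figure D3:**
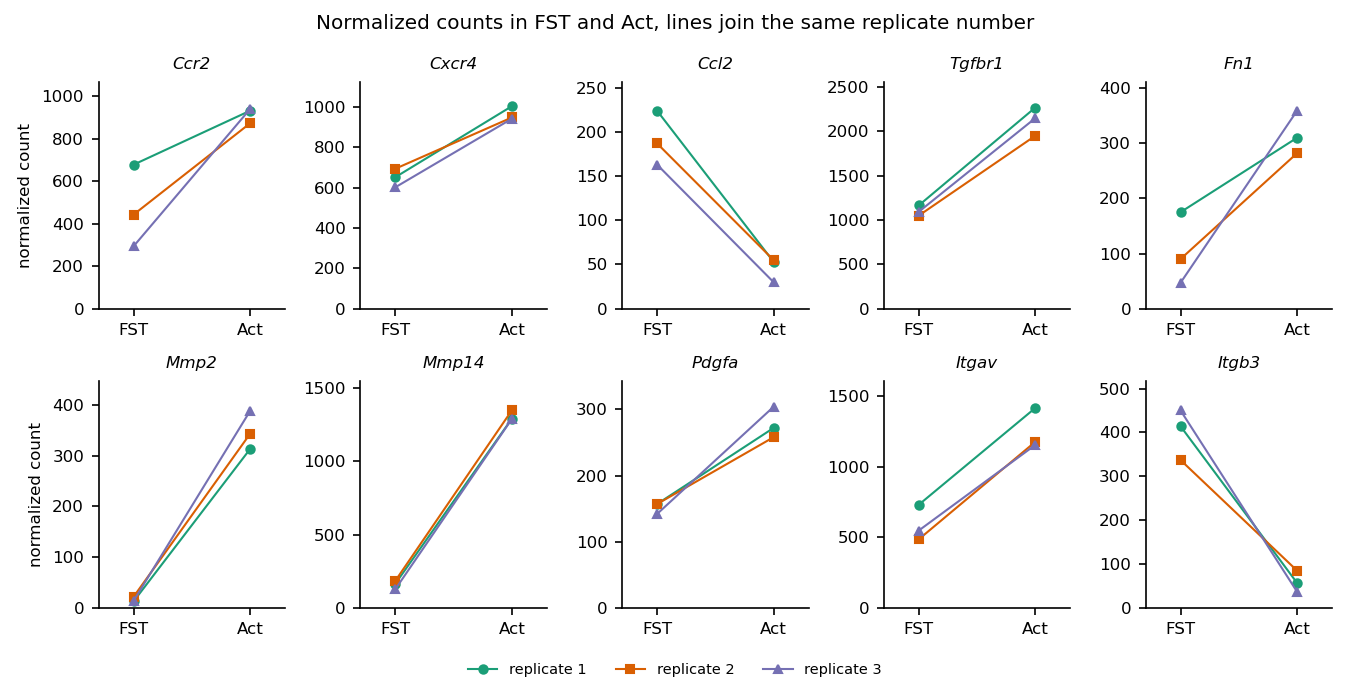
Normalized counts (vertical axes from 0) in FST and Act of the 10 genes that the study names from these libraries, with lines joining libraries of the same replicate number. *Ccl2* and *Itgb3* fall and the other 8 genes rise in every pair, and for *Ccr2* and *Fn1* the 3 FST points are spread (294 to 678 and 47 to 175) while the 3 Act points lie together.

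Matrix genes changed in both directions and mostly upward. Among 32 collagens and matrix glycoproteins tested, 13 were higher and 8 lower, against 17.3% and 17.0% of all genes tested. There were 8 and 2 DEGs with a median log2 fold change of 0.35 over the list. Without the replicate block 12 were higher and 4 lower. *Fn1*, which encodes fibronectin, had 175, 90 and 47 normalized counts in FST replicates 1, 2 and 3 and 310, 282 and 359 in Act. No Act library was as low as any FST library, and the FST values differed most, so that the log2 difference was 0.82, 1.64 and 2.91 in pairs 1, 2 and 3. The log2 fold change in the fit was 1.79 (SE 0.30, adjusted p = 3.3e-04, and 0.024 without the block). *Col15a1*, a basement membrane collagen, had 35, 30 and 42 in FST and 283, 228 and 327 in Act (2.93, adjusted p = 2.7e-08). *Col14a1* had 6, 1 and 2 in FST and 65, 53 and 79 in Act (4.24), and *Col4a2* had 9, 4 and 4 in FST and 36, 41 and 23 in Act (2.41), both at low levels. *Fbln5*, an elastic fiber protein, fell from 179, 153 and 225 in FST to 22, 21 and 13 in Act (−3.26). *Nid2*, a basement membrane linker, was the other DEG that fell (−1.83).

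Matrix proteases and inhibitors held 6 higher and 9 lower of 22 (3 and 7 without the replicate block), and 3 and 5 DEGs. Over all genes tested, 17.3% were higher and 17.0% lower. Gelatinase A and its activator rose most. *Mmp2* had 13, 22 and 14 normalized counts in FST and 313, 343 and 388 in Act (log2 fold change 4.36, SE 0.20, adjusted p = 2.5e-09). *Mmp14*, the membrane-bound protease that activates pro-MMP2, had 165, 185 and 128 in FST and 1290, 1347 and 1288 in Act (3.05, SE 0.11, adjusted p = 2.8e-10). Act stood over 7-fold above FST in every pair of both genes, and *Mmp25* was the other DEG that rose (1.09), a call lost without the block (adjusted p = 0.075). *Mmp12*, the macrophage elastase, fell from 1063, 974 and 969 in FST to 444, 438 and 372 in Act (−1.26). *Mmp27* (−1.45), *Ctsk* (−1.67), *Timp1* (−1.51) and *Adamts1* (−2.77) were the other DEGs that fell. *Mmp9*, gelatinase B, did not pass the test (−0.43).

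Integrin subunits, which bind cells to the matrix, held 7 higher and 2 lower of 20, against 17.3% and 17.0% of all genes tested. *Itgb3*, the β3 subunit, had 414, 337 and 450 normalized counts in FST and 57, 85 and 37 in Act (log2 fold change −2.79, SE 0.23, adjusted p = 4.0e-07). *Itgav*, the αv subunit that pairs with β3, moved the other way with 732, 487 and 549 in FST and 1418, 1178 and 1156 in Act (1.10, SE 0.05, adjusted p = 3.1e-09). *Itgal*, the αL subunit of LFA-1, had 800, 802 and 662 in FST and 1725, 1692 and 1963 in Act (1.25). *Itgb5*, another partner of αv, was higher (0.45), and *Itgb1* did not pass the test (−0.04).

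Of 18 growth factors and receptors, 9 were higher and 7 lower, against 17.3% and 17.0% of all genes tested. *Pdgfa*, a platelet-derived growth factor chain that acts on fibroblasts, had 157, 157 and 142 normalized counts in FST and 272, 258 and 304 in Act (log2 fold change 0.86, SE 0.09, adjusted p = 5.9e-06), and 26.1% of its exonic bases overlap another gene on the opposite strand. *Pdgfb* was also higher (0.72). *Axl*, the receptor tyrosine kinase for GAS6 that takes part in the uptake of dying cells, had 784, 547 and 585 in FST and 2176, 2096 and 2140 in Act (1.76, adjusted p = 4.1e-08). Its ligand *Gas6* was lower (−0.27). *Flt1*, a VEGF receptor, rose from 28, 5 and 11 to 119, 93 and 141 (3.19), and *Hbegf* (−1.84) and *Fgfr1* (−1.48) were DEGs that fell.

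Genes that define macrophages were detected in every library of both groups. Of the 12 identity genes, 8 did not pass the test, 2 were higher and 2 lower, shares close to the 17.3% higher and 17.0% lower over all genes tested. *Csf1r*, the M-CSF receptor, had 3211, 3570 and 3140 normalized counts in FST and 3530, 3342 and 3418 in Act, and the 95% interval of its log2 fold change ran from −0.064 to 0.17. *Adgre1* (F4/80) had 2233, 2323 and 2088 in FST and 2175, 2055 and 2064 in Act, with an interval from −0.17 to 0.017. *Spi1*, encoding the macrophage factor PU.1, had an interval from −0.040 to 0.12. The intervals of *Cd68*, *Itgam*, *Mertk*, *Fcgr1* and *Lyz2* also included 0 and stayed within −0.22 and 0.16. Of the exonic bases of *Csf1r*, 15.1% overlap another gene on the opposite strand, and of those of *Itgam*, 68.7% on the same strand. By detection of these markers, the macrophage label held in both groups. *Lyz2*, *Cd68*, *Adgre1* and *Csf1r* had 0.877, 0.854, 0.673 and 0.580 normalized counts per exonic base, above 0.4, where no gene was a DEG. *Fcgr1*, *Mertk* and *Spi1* had 0.391, 0.388 and 0.349, and *Itgam* 0.116. What part dense coverage had in the narrow intervals of these genes was not tested. The scavenger receptor *Cd163*, the lowest of the 12 genes in both groups, fell from 248, 242 and 238 in FST to 92, 107 and 62 in Act (−1.50, adjusted p = 6.5e-07), and the mannose receptor *Mrc1* fell from 3332, 3447 and 3288 to 2466, 2232 and 2158 (−0.56). *Cd14*, a co-receptor for lipopolysaccharide, was higher (0.25).

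Genes of homeostatic microglia, the macrophages of the brain, were higher or did not pass the test. Of 21 tested, 12 were higher and 0 lower, against 17.3% and 17.0% of all genes tested, with a median log2 fold change of 0.41. The DEGs were *Olfml3*, *Tmem119* and *Cx3cr1*, described above. The others rose by less, such as *Fcrls*, with 1129, 1098 and 999 normalized counts in FST and 1674, 1578 and 1594 in Act (0.59, adjusted p = 1.7e-07). *P2ry12*, a purine receptor, had 442, 427 and 425 in FST and 671, 596 and 606 in Act (0.53, adjusted p = 3.7e-06). *Gpr34* was also higher (0.58). *Trem2*, *Mertk* and *Csf1r* did not pass the test, at 0.04, 0.06 and 0.05.

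Genes of alternatively activated and tissue-resident macrophages showed 4 higher and 11 lower of 22, and 2 and 11 without the block. Over all genes tested, 17.3% were higher and 17.0% lower. Besides *Cd163*, the DEGs that fell were the folate receptor *Folr2* (−1.44, with 63.1% of its exonic bases overlapped on the opposite strand), the transcription factor *Klf4* (−1.23) and the lipid regulator *Pparg*, which had 487, 422 and 435 normalized counts in FST and 253, 244 and 172 in Act (−1.02, adjusted p = 8.6e-07). *Cd36* (−0.97), *Cd5l* (−0.96) and the iron exporter *Slc40a1* (−0.64) were lower under 2-fold. *Marco*, a scavenger receptor for bacteria, went the other way with 74, 86 and 77 in FST and 131, 168 and 200 in Act (1.05), and was under 2-fold without Act replicate 3 (0.94) or FST replicate 3 (0.94). *Stab1*, the gene with the highest value in every library, did not pass the test (−0.04).

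Monocyte genes were mixed, with 5 of 17 higher and 6 lower, against 17.3% higher and 17.0% lower over all genes tested. *Hp*, haptoglobin, rose from 51, 71 and 42 normalized counts in FST to 171, 205 and 270 in Act (log2 fold change 1.97), and *Treml4* from 55, 36 and 44 to 191, 152 and 169 (1.91). *Ccr2*, described above, was the other DEG that rose. *Ly6c2*, the gene of a surface marker of those monocytes, did not pass the test (0.34). Among 14 osteoclast genes, 5 were higher and 5 lower, against those shares of all genes, and 3 and 3 without the block. *Acp5* (1.22) and *Src* (1.51) were DEGs that rose, whereas *Itgb3*, *Ctsk* and *Atp6v0d2* fell, the last of these from 1055, 1129 and 957 in FST to 601, 548 and 422 in Act (−1.01, and −0.94 without Act replicate 3). Of 16 genes of MHC class II and costimulation, 6 were higher and 4 lower, against the same shares of all genes. *H2-Ob*, a subunit of the modulator of peptide loading, had 19, 19 and 12 in FST and 119, 142 and 134 in Act (2.93, adjusted p = 2.0e-07), and its partner *H2-Oa* rose too (2.01). The class II chains *H2-Aa*, *H2-Ab1* and *H2-Eb1* did not pass the test, at −0.24, −0.11 and −0.18. *Ciita*, their master regulator, was lower (−0.75, adjusted p = 4.9e-04), a call lost without the block (0.14).

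Genes of sterol and fatty acid synthesis moved in a single direction. Of 28 tested, 25 were lower by the adjusted p and 0 higher, the other 3 being *Acaca*, *Fasn* and *Acly*, and 7 of the 25 were DEGs. The median log2 fold change was −0.72, and without the replicate block 20 were lower and 0 higher. Over all genes tested, 17.0% were lower and 17.3% higher. *Scd1*, the desaturase that makes monounsaturated fatty acids, had 230, 281 and 449 normalized counts in FST replicates 1, 2 and 3 and 32, 43 and 44 in Act (log2 fold change −2.94, SE 0.23, adjusted p = 3.4e-07). *Sqle*, squalene epoxidase, had 426, 392 and 545 in FST and 140, 152 and 191 in Act (−1.49, SE 0.06, adjusted p = 1.5e-09). Replicate 3 was the highest library of its group for both genes, in FST and in Act alike, and Act remained below FST in every pair. *Hsd17b7* (−1.43), *Idi1* (−1.32) and *Stard4* (−1.03) were also DEGs. *Srebf2*, the factor that drives these genes, was lower as well (−0.64), and *Srebf1* slightly (−0.15), the latter a call lost without the block (adjusted p = 0.17). Genes of lipid handling held 5 of 21 higher and 6 lower, against those shares of all genes, and 4 and 3 without the block. *Lpl* (−0.58) fell, and the cholesterol exporter *Abca1* (0.18), *Apoe* (0.22), the ubiquitin ligase gene *Mylip* (0.51) and *Apoc1* (1.75) rose. The call of *Abca1* was lost without the block (adjusted p = 0.16).

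Cell cycle genes were lower in Act. Of 37 tested, 26 were lower and 1 higher, *E2f2* (0.78), against 17.0% and 17.3% of all genes tested. DEGs numbered 13, all of them lower, and the median log2 fold change of the list was −0.53. Mitotic genes led the list. *Ccna2*, cyclin A2, had 231, 199 and 272 normalized counts in FST and 46, 43 and 57 in Act (log2 fold change −2.24, SE 0.26, adjusted p = 1.4e-05), with 12.5% of its exonic bases overlapped on the opposite strand. *Plk1*, a mitotic kinase, had 146, 100 and 175 in FST and 33, 27 and 31 in Act (−2.14, adjusted p = 7.9e-05). *Ccnb1*, cyclin B1, had 66, 55 and 90 in FST and 22, 8 and 21 in Act (−2.08, adjusted p = 3.8e-04). The groups did not overlap for any of the 3. *Ccnd1*, the cyclin that answers growth signals in G1, had 719, 446 and 452 in FST and 233, 183 and 106 in Act (−1.66), and *Top2a* had 682, 466 and 664 in FST and 288, 251 and 245 in Act (−1.19). Not all genes of dividing cells followed. *Mki67* did not pass the test (−0.30, adjusted p = 0.16), nor did *Cdk1* (−0.18), *Mcm6* (−0.09) or *Mcm7* (−0.08). The inhibitors *Cdkn1a* (−0.34), *Cdkn2c* (−0.53) and *Cdkn1c* (−1.19) were lower rather than higher.

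The upstream windows of *Plk1* and *Ccnb1*, chosen after their values were seen, are shown because CCAAT is common before genes of mitosis. Capitals mark CCAAT, from the search described above.
Plk1 (chr7:122159185-122159434, plus strand): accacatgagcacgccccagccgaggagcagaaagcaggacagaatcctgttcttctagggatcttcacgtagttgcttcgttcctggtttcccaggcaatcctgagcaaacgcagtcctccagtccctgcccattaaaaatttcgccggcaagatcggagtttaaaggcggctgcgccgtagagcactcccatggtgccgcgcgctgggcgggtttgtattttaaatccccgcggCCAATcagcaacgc
Ccnb1 (chr13:100786487-100786736, minus strand): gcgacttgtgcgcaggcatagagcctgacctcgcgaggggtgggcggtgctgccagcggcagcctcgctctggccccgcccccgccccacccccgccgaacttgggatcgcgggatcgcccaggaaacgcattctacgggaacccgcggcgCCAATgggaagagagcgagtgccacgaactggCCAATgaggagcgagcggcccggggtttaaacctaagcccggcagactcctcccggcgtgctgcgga
*Plk1* held CCAAT at bases −14 to −10 from its start, and *Ccnb1* at −99 to −95 and at −67 to −63, all on the gene's strand, where 36.9% of the promoter windows of genes tested held it on either strand.

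**Figure D4:**
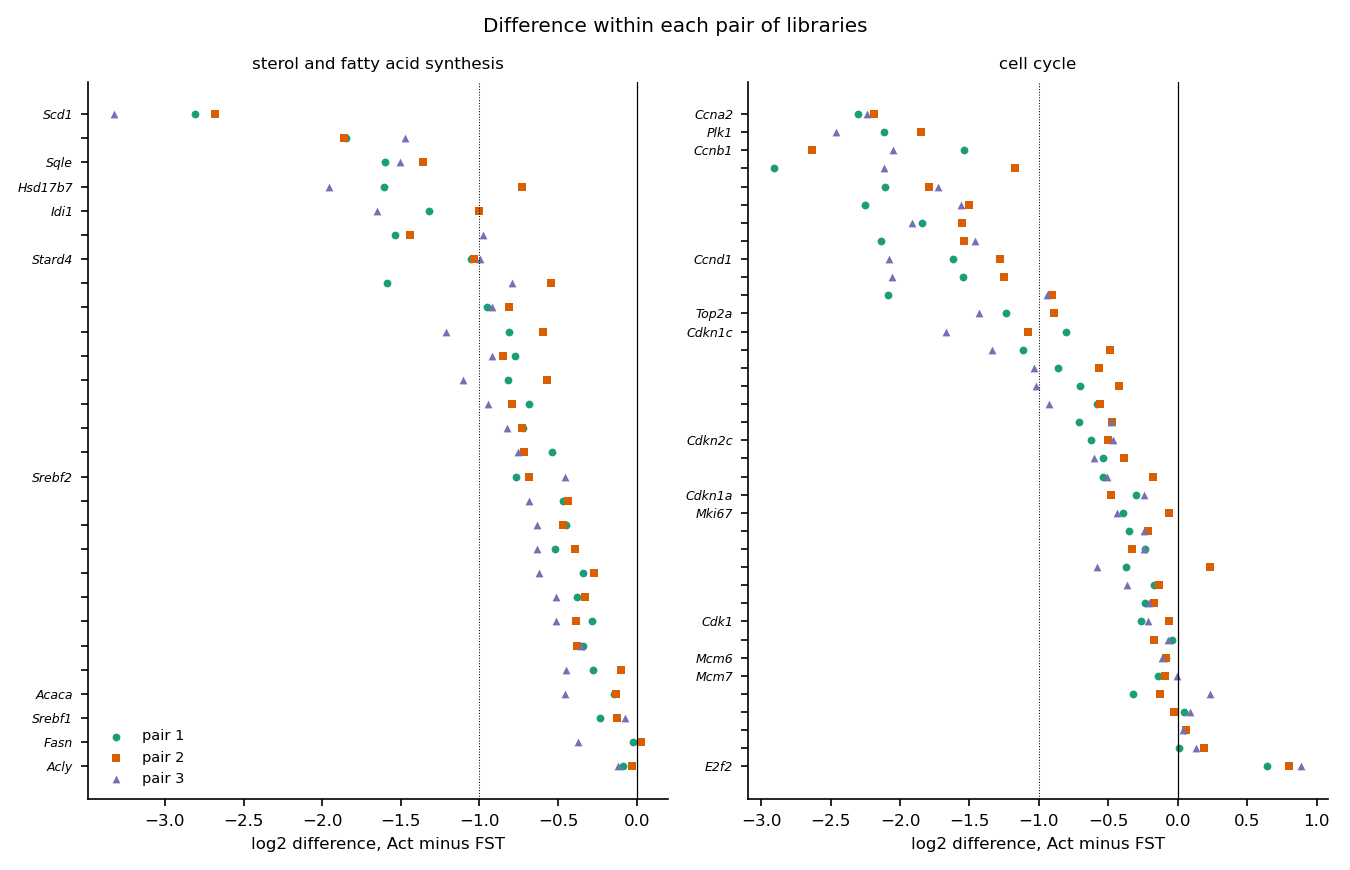
Log2 difference of Act minus FST (horizontal axis) within each of the 3 pairs for every tested gene of sterol and fatty acid synthesis (left) and of the cell cycle (right), with a dotted line at 2-fold lower and a marker shape per pair. Genes are in rows by fold change, and those the text names are labelled. Most points lie left of 0, with *Scd1* near −3 and *E2f2* to the right in every pair.

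The other lists held changes in both directions or few changes. Of 24 genes of glycolysis and hypoxia, 13 were higher and 3 lower, against 17.3% and 17.0% of all genes tested. Without the replicate block 11 were higher and 1 lower. The list held 1 DEG, where 7.1% of all genes tested were DEGs. This was *Egln3*, an oxygen-sensing prolyl hydroxylase, with 76, 19 and 15 normalized counts in FST and 124, 127 and 128 in Act (log2 fold change 2.13, adjusted p = 0.0017), a call lost without the block (adjusted p = 0.068). *Hif1a*, the hypoxia factor, had 1006, 981 and 888 normalized counts in FST and 1708, 1600 and 1586 in Act (log2 fold change 0.77, adjusted p = 1.2e-08). *Hk2*, hexokinase 2, had 593, 557 and 581 in FST and 1034, 996 and 1007 in Act (0.81), and the glucose transporter *Slc2a1* was higher as well (0.84). *Ldha* and *Gapdh* did not pass the test, at 0.02 and 0.07. Interferon-stimulated genes included 5 of 25 that were lower and 0 higher, with 0 DEGs, where 17.0% of all genes tested were lower and 17.3% higher. *Rsad2* showed 997, 855 and 931 in FST and 657, 527 and 670 in Act (−0.59). Lysosome genes held 5 higher and 8 lower of 33, and Fc gamma and toll-like receptors 4 higher and 2 lower of 18 with 0 DEGs, both near those shares of all genes. Without the block, 3 interferon-stimulated genes were lower, and 3 lysosome genes were higher and 5 lower. *Ctse*, cathepsin E, was a DEG that rose from 129, 108 and 103 to 294, 378 and 300, while most others moved by small amounts, such as *Ctsb* (−0.24). Complement genes held 4 higher and 5 lower of 17, against those shares of all genes. *C3*, the central component, had 1074, 765 and 589 in FST and 2434, 1967 and 2259 in Act (1.49, adjusted p = 1.7e-07). Among the receptors *Tlr2* was higher (0.51) and *Tlr4* lower (−0.26). Early response factors held 6 higher and 9 lower of 23, against those shares of all genes, and 5 and 5 without the block. *Fosl2*, an AP-1 subunit, was higher (0.98), and the DEGs were *Fosb* (−1.75), *Klf4*, *Klf2* (−1.15) and *Egr3* (−1.09), all lower, of which *Egr3* was under 2-fold without Act replicate 2 (−0.97).

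**Figure D5:**
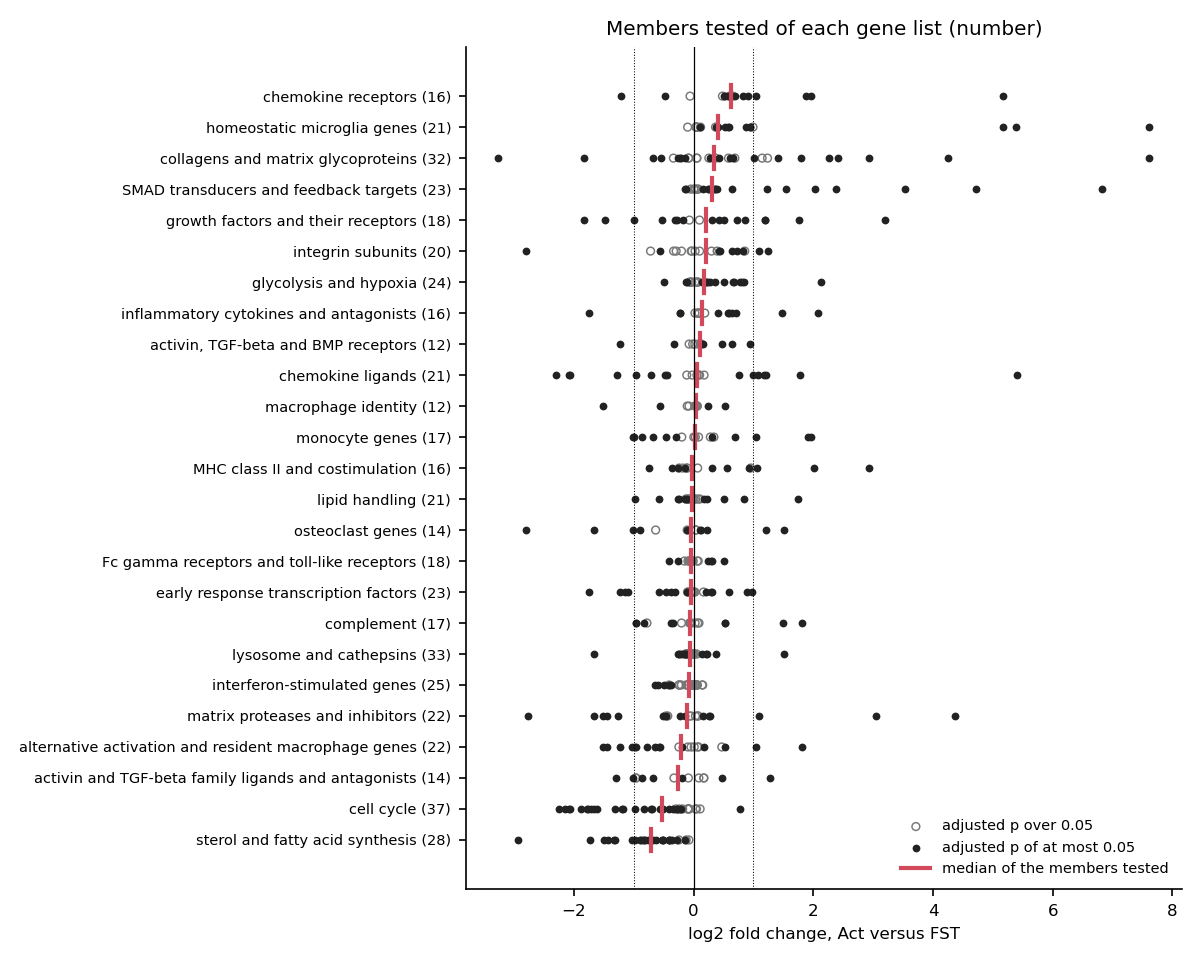
Log2 fold change of Act versus FST (horizontal axis) for every tested member of 25 gene lists, with filled points at an adjusted p of at most 0.05, open points above it, red bars at the list medians and dotted lines at 2-fold. Medians run from 0.63 for chemokine receptors (with formyl peptide receptors) to −0.72 for sterol and fatty acid synthesis, against 0.00 for all genes tested.

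Markers of other cells that a bone marrow culture could hold ranged from scarce to abundant, and some moved with the groups. Among 12 genes of neutrophils and progenitors, 3 were lower and 0 higher, where 17.0% of all genes tested were lower and 17.3% higher. *Mpo*, myeloperoxidase, had 89, 154 and 73 normalized counts in FST and 15, 42 and 15 in Act (log2 fold change −2.18, adjusted p = 3.1e-07), and 15.0% of its exonic bases are overlapped on the opposite strand. *Elane* (−1.93) and *Prtn3* (−1.29), further granule proteases of myeloid progenitors, were also lower, and *Kit*, a receptor of progenitors and mast cells, fell from 59, 49 and 72 to 16, 32 and 11 (−1.67). The genes of mature neutrophils *S100a8*, *S100a9* and *Ltf* did not pass the test, at 0.10, 0.10 and 0.16. The summed level of the 12 genes ran from 1361 to 1930 in FST and from 1124 to 1860 in Act. *Mpo*, *Elane*, *Prtn3* and *Kit* are low in macrophages and fell beside the cell cycle genes, and their part in that result was not tested.

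Of 10 fibroblast and stromal genes, 3 were tested, and their summed level ran from 8 to 102 in FST and from 13 to 228 in Act. *Col1a1* had 35, 4 and 4 normalized counts in FST replicates 1, 2 and 3 and 83, 8 and 3 in Act, and *Col1a2* had 58, 1 and 4 in FST and 109, 9 and 6 in Act. Neither passed the test (adjusted p = 0.33 and 0.057), and replicate 1 was the highest library of each group for both. *Postn* was the member called higher, with 9, 3 and 1 in FST and 36, 7 and 4 in Act (1.40, adjusted p = 0.022, and 0.27 without the block). *Fn1*, *Mmp2* and *Col15a1* were highest in replicate 3 among the Act libraries. In FST, *Fn1* was highest in replicate 1 (175, against 90 and 47), as it was in CTRL (238, against 159 and 105), and replicate 1 was also the highest for *Col1a1* and *Col1a2*. The part of stromal cells in the matrix results was not tested. Endothelial genes split, with *Pecam1* higher (1.36) and *Vwf* (−0.85, with 1880, 1764 and 2182 in FST and 1179, 931 and 1129 in Act) and *Kdr* (−0.99) lower, and the defining marker *Cdh5* was scarce and did not pass the test (0.12). Among genes of dendritic cells, *Cd209a* fell from 30, 36 and 22 to 1, 14 and 7 (−2.26) and *Siglech* was higher (0.88), a call lost without the block (adjusted p = 0.079). Of 5 B cell genes tested, *Ighm* was lower (−0.23, with 999, 1154 and 1005 in FST and 891, 895 and 905 in Act), and *Ms4a1* and *Pax5* were near the limit of the filter. *Cd4* was the tested member of the T and NK cell list and was lower, with 645, 792 and 733 in FST and 461, 493 and 393 in Act (−0.69). *Klf1* (−1.23) and *Itga2b* (−0.56) were the lower ones of 4 erythroid and megakaryocyte genes, and the call of *Itga2b* was lost without the block (adjusted p = 0.45).

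FST was used as the low end of the activin signal, and the comparison of FST with CTRL shows how far it lay from untreated cells. Act versus CTRL gave 403 DEGs higher (2.81%) and 499 lower (3.49%), together 6.3% of the genes tested. It shares the Act libraries with Act versus FST, and the difference of the fold changes is that of FST versus CTRL, in which 0 genes (0.0%) passed an adjusted p of 0.05 by limma. At an unadjusted p under 0.05, 700 genes (4.89%) differed between FST and CTRL, of which 21 (0.147%) rose 2-fold or more from CTRL to FST in fitted level and 13 (0.0908%) dropped as far. None of the 33 gene lists held a gene called in FST versus CTRL. A difference in the number of DEGs is therefore not shown to be a difference in the response of any named gene.

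By fitted level, and with no test, FST lay on the far side of CTRL from Act for many genes. To describe this without the Act and FST contrast, the DEGs of Act versus Act + FST were taken, which has none of the FST or CTRL libraries as its groups and called 426 genes higher (2.98%) and 500 lower (3.49%). In this contrast, as in FST versus CTRL, follistatin is the agent that differs. Effects of follistatin on activin and any other effects of it cannot be told apart here. Of the 426 genes higher in Act, 330 (77.5%) had a lower fitted level in FST than in CTRL, against 48.7% of all genes tested. The median log2 difference of FST versus CTRL was −0.15, and by pair it was −0.061, −0.29 and −0.13. CTRL replicate 2 enters pair 2, and in pairs 1 and 3 FST was lower for 235 and 247 of the 426 genes. Over all 14318 genes tested, FST was lower for 6918 and 6863 in these pairs. FST was lower in all 3 pairs for 117 genes (27.5%, against 11.4% of all). Of the 500 genes lower in Act, 372 (74.4%) had a higher fitted level in FST than in CTRL, against 51.3% of all, with a median of 0.094. By pair this median was 0.14, −0.072 and 0.25, so that pair 2 went the other way, and 107 genes (21.4%, against 12.4% of all) were higher in all 3 pairs. With a mean of 50 or more, the shares by fitted level were 92.6% of 175 genes and 83.6% of 213, against 48.4% and 51.6% of all genes of that mean. In all 3 pairs, FST was lower for 76 of the 175 (43.4%, against 11.9% of all). It was higher in all 3 pairs for 57 of the 213 (26.8%, against 13.3%). In pair 2, 126 of the 213 were lower in FST and 82 higher, against 4766 and 5690 of all 10634 genes of that mean. The lowest adjusted p of FST versus CTRL was 0.33 among the genes higher in Act and 0.72 among those lower in Act, and no single gene passed.

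*Mmp14* was an example, with 165, 185 and 128 normalized counts in FST and 207, 341 and 193 in CTRL. FST was below CTRL in each pair, with a log2 fold change of −0.60 and an adjusted p of 0.37. *Cx3cr1* had 119, 58 and 29 in FST and 205, 502 and 80 in CTRL (−1.77, adjusted p = 0.61). *Fn1* had 175, 90 and 47 in FST and 238, 159 and 105 in CTRL (−0.80, adjusted p = 0.90). *Olfml3* had 12, 2 and 3 in FST and 22, 142 and 8 in CTRL (−2.52, adjusted p = 0.72), and here CTRL replicate 2 set much of the size. *Ccr2* and *Ccl2* did not lie apart in this way, with log2 fold changes of FST versus CTRL of 0.00 and 0.01.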

How the data were processed

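Per the submitters' processing notes, the authors used Trimmomatic 0.39 for trimming, STAR 2.7.9a for alignment to mm10, featureCounts 2.0.2 for counting and DESeq2 1.30.0. The strand setting of the counting is not given in the sources used here. The deposited signal per gene and library was taken as such a count after scaling by a factor of its library and rounding. It was therefore tested as a normalized value and not with a count model.

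Genes whose mean over the 12 libraries reached 5 entered limma 3.58.1 in R 4.3.3 (two-sided tests, variances shrunk towards a trend on the mean) as log2(value + 1). All 12 libraries entered with 4 group means, sharing 1 estimate of the spread, and the replicate number as a block. Adding 1 understates fold changes of genes with low values. Replicate numbers come from the labels. Deviations from the group means correlated across genes with a mean r of 0.312 for the same number (18 pairs of libraries, 0.157 to 0.481). Pairing by number was part of how the comparison was defined, and these correlations were a check of it. For different numbers the mean was −0.155 (36 pairs), which largely follows from the 0.312, since deviations sum to 0 within each group. In simulated data of Act versus FST with 14296 genes tested, 200 of 200 genes changed by 3-fold were called, with 0 false calls. The simulation changed no gene close to the filter, held no replicate effect and gave genes of similar level the same spread. It therefore does not show the error rate of the calls in the real libraries. Totals of the scaled values do not show the original depth, which limits precision most near a mean of 5.

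Named are the 10 genes the study names, the 10 largest rises and falls among DEGs whose mean reached 50 and whose libraries did not overlap, the up to 3 largest changes each way of every list among genes that passed with a mean of at least 50, and the macrophage identity genes. Other members of the lists were named after their values were seen. The members and lists were chosen with earlier results of these data known. Some genes of the lists and of this rule are not reported here. Promoter windows are from RefSeq (GRCm38.p6), with entries for 10221 genes tested. Alternatives were another pseudocount, filter, scaling, fold threshold or variance model, no block, the compared groups alone, and leaving out libraries. No library was left out of the fits reported.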

Additional observations from a re-analysis of the deposited data

How the results depend on the processing

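DEGs higher and lower in Act versus FST numbered 463 and 553. They became 192 and 231 with a mean of at least 50, 792 and 928 at a fold threshold of 1.5, and 151 and 133 in a test against a fold change of 2. For Act versus CTRL these settings gave 164 and 205, 725 and 835, and 119 and 105, and for Act versus Act + FST 175 and 213, 732 and 830, and 128 and 96. Leaving out libraries gave 402 to 497 higher and 484 to 599 lower DEGs in Act versus FST, 349 to 430 and 432 to 527 in Act versus CTRL, 363 to 444 and 441 to 541 in Act versus Act + FST, and 0 to 0 in FST versus CTRL. Without the replicate block that pairs the libraries, Act versus FST gave 426 and 500 DEGs, all among those called with it, and FST versus CTRL gave 0 and 0. Of 146 genes under the naming rule, 138 passed the adjusted p, of which 13 lost it without the block and 93 in the test against a fold change of 2. Only genes that had not passed changed sign. *Itgam* went from 0.03 to −0.0023 under quantile normalization, and leaving out libraries moved it between −0.0206 and 0.0946. *Lyz2* went from 0.03 to between −0.0235 and 0.1188 when libraries were left out. With 3 libraries per group, original depth unknown and rounded values, small changes of genes near the mean of 5 are beyond these data.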
